A study of Mus musculus with 12 samples.

Results

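The macrophage lineage transcription factors examined here are Spi1, Cebpa, Cebpb, Cebpd, Maf, Klf2, Klf4, Mitf and Runx1. They were taken by gene symbol, and all 9 were found among the 23997 genes listed for each library. RNA was sequenced from bone marrow-derived macrophages (BMDMs) of WT and Pim1-/- mice, all male, on the C57BL/6 background and 8 to 10 weeks old. Pim1 encodes a serine/threonine kinase, and exons I to V of the gene had been deleted by CRISPR/Cas9 in the Pim1-/- line. Marrow cells of both genotypes were grown for 7 days in M-CSF, the growth factor of the macrophage line (human, recombinant, at 10 ng/ml), and were then left untreated or given 100 ng/ml lipopolysaccharide (LPS), a ligand of Toll-like receptor 4, for 4 h. Each of the 4 groups held 3 libraries. The labels do not say which mouse or culture each library came from, so p-values measure the spread between these libraries, which may be technical. Levels are given as FPKM, a value per kilobase of transcript and scaled for library size, which can be compared between genes. The scaling did not make the summed FPKM equal between libraries. In RNA from whole cultures, fewer cells of a type and less RNA per cell cannot be told apart.

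Macrophages form from marrow progenitors under an ordered set of transcription factors. Runx1 opens the program and helps to switch on Spi1, which encodes the ETS factor PU.1, and PU.1 then works with C/EBP alpha to commit cells to the myeloid line. Maf belongs to the factors that hold macrophages in a mature, largely non-dividing state, Klf2 and Klf4 restrain inflammatory activation and guide monocyte differentiation, and Mitf belongs to a family that controls lysosomes. C/EBP beta and C/EBP delta are induced by inflammatory signals and act on cytokine and acute phase genes. The comparisons ask how these genes stood in WT and Pim1-/- cells, before and after LPS.

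The library totals differed with treatment. The summed FPKM of all genes was 467484 to 489710 in untreated WT, 452511 to 472138 in untreated Pim1-/-, 837585 to 849323 in LPS-treated WT and 713307 to 743912 in LPS-treated Pim1-/- libraries. FPKM holds no read counts, but in genes with a single annotated transcript the lowest values piled up at whole multiples of 1 step, the worth of 1 fragment. On a transcript of 2000 bases this worth was 0.0121 to 0.0147 FPKM in untreated and 0.0172 to 0.0265 FPKM in LPS-treated libraries, so the lowest level of any of the 9 genes, 0.999 FPKM for Cebpa in a WT LPS library, stood for about 56.9 fragments. Pearson's r across genes between libraries of a group was 0.996 to 0.998, and genes are not independent replicates. Pim1 itself was measured at 25.0, 21.5 and 22.3 FPKM in untreated WT and at 8.70, 8.00 and 9.51 FPKM in untreated Pim1-/- libraries. After LPS it stood at 665, 630 and 641 FPKM in WT against 216, 205 and 236 FPKM in Pim1-/- libraries. The transcript was therefore lower in every Pim1-/- library but not absent, and the values do not show which exons the remaining fragments came from.

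All 9 genes had at least 1 FPKM in at least 3 libraries and entered a limma fit of log2(FPKM + 1) over 10581 genes. A gene is said below to have risen or fallen if it differed by more than 2-fold on that scale with an unadjusted p under 0.05 and an FDR (Benjamini-Hochberg) under 0.1, the thresholds of the study, here used in both directions. The SE of the fitted differences of the 9 genes was 0.04 to 0.10. Adjusted p-values are over all genes tested.

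**Figure D1:**
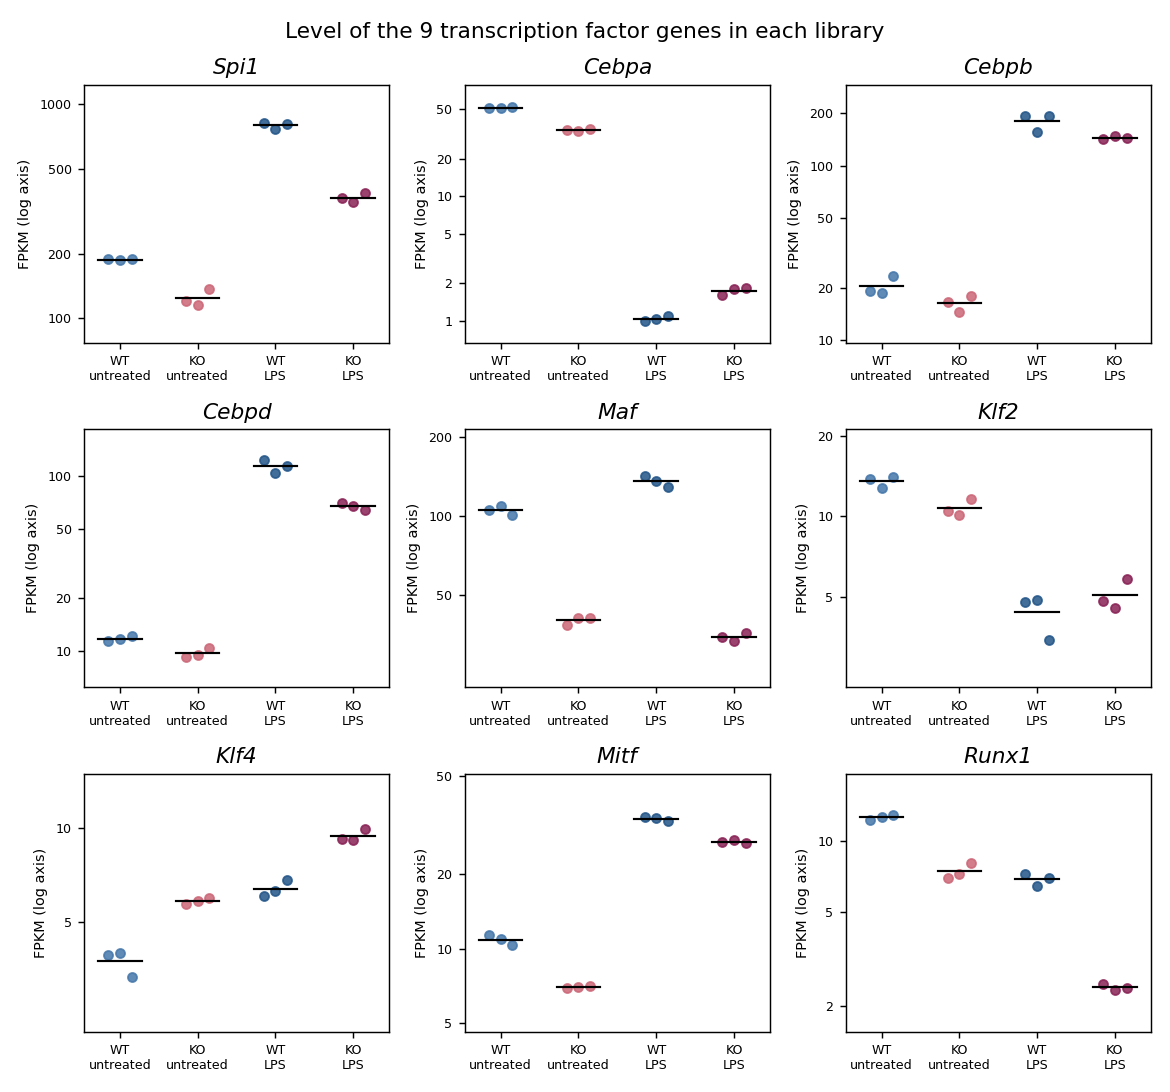
FPKM (log axis) of each of the 9 genes in each of the 12 libraries, with points for libraries and a bar for the mean of the 3 libraries of a group; KO stands for Pim1-/-. Maf separates the genotypes most in both treatments, Cebpa drops from 33.0 or more to 1.83 or less with LPS in both genotypes, and the Klf2 points of the LPS-treated genotypes overlap.

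In untreated BMDMs, 1 of the 9 genes fell in Pim1-/- cells, the bZIP factor gene Maf. Of all genes tested, 7.78% met the thresholds in this comparison, 4.4% higher and 3.37% lower. The other 8 genes stayed within 2-fold, although all 9 passed the FDR threshold alone, as did 78.8% of all genes tested. Neither count stands far from that of all genes, so neither is a result about the 9 as a set. The direction was lower in Pim1-/- cells for 8 genes and higher for Klf4, with a median difference of −0.57 on the log2 scale for the 9 genes and −0.05 for all genes tested.

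After LPS, 3 of the 9 genes were lower in Pim1-/- than in WT cells by all thresholds, namely Maf, Runx1 and Spi1. In this comparison 8.66% of all genes tested met the thresholds, 3.51% higher and 5.15% lower, and 80.9% passed the FDR threshold alone, as did 8 of the 9 genes. Klf2 was the exception. Of the 8 that passed, Cebpa and Klf4 were higher in Pim1-/- cells and the other 6 were lower. The median difference was −0.32 on the log2 scale for the 9 genes and −0.03 for all genes tested.

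**Figure D2:**
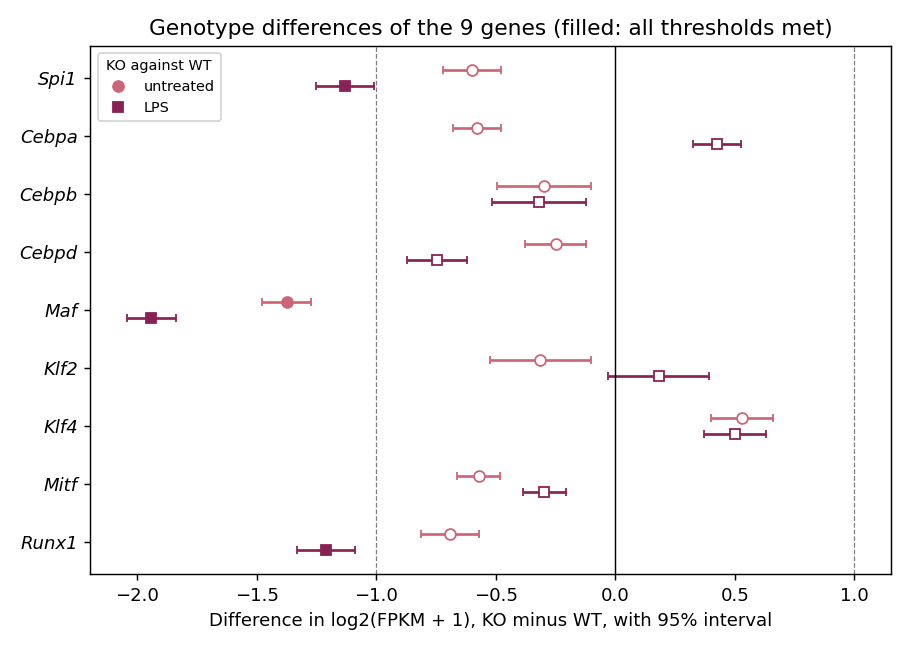
Difference in log2(FPKM + 1), Pim1-/- (KO) minus WT, with its 95% confidence interval, for untreated (circles) and LPS-treated (squares) cells; filled symbols met all thresholds and dashed lines mark 2-fold. Filled symbols are Maf at −1.37 and −1.94, Runx1 at −1.21 and Spi1 at −1.13, the last 2 with LPS.

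Spi1 lies on chromosome 2, at 91082390 to 91115756 on the plus strand (GRCm38, GENCODE M21), and it was the highest of the 9 genes in every group. Its level was 188, 187 and 188 FPKM in untreated WT libraries and 120, 115 and 136 FPKM in untreated Pim1-/- libraries. With LPS it was 822, 771 and 810 FPKM in WT against 364, 347 and 384 FPKM in Pim1-/- libraries. The 4 groups did not overlap, and the Pim1-/- libraries were below the WT libraries under both treatments. In untreated cells the Pim1-/- mean was 66.0% of the WT mean, a difference of −0.60 on the log2(FPKM + 1) scale (adjusted p = 1.52e-07). After LPS it was 45.6% of the WT mean, and Spi1 fell by 1.13 on the log2(FPKM + 1) scale (adjusted p = 7.57e-11). That difference was −0.88 under quantile normalization and −0.93 with all libraries scaled to 1 sum of FPKM, and in both cases it no longer reached 2-fold.

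Runx1, on the minus strand of chromosome 16 (92601466 to 92826149), encodes the DNA-binding subunit of core-binding factor. It was measured at 12.3, 12.7 and 12.9 FPKM in untreated WT and at 6.97, 7.27 and 8.09 FPKM in untreated Pim1-/- libraries. With LPS the levels were 7.24, 6.46 and 6.96 FPKM in WT against 2.48, 2.33 and 2.40 FPKM in Pim1-/- libraries. The genotypes did not overlap under either treatment, and the LPS-treated Pim1-/- libraries were the lowest of all. The difference between genotypes was −0.69 on the log2(FPKM + 1) scale without treatment (adjusted p = 3.04e-08) and −1.21 after LPS (adjusted p = 3.43e-11), where the Pim1-/- mean was 34.9% of the WT mean. With equal FPKM sums the latter was −0.999, just inside 2-fold. LPS lowered Runx1 past the thresholds in Pim1-/- cells, to 32.3% of the untreated mean (−1.31 on the log2 scale), while in WT cells the LPS mean was 54.6% of the untreated mean (−0.79). With equal FPKM sums the WT response was −1.51 and passed the thresholds too, but relative to the median gene it was −0.85, against −0.79 in the values as deposited. The other Runx genes were lower in level. Runx1 made up 83.4% ± 0.609 (SD, n = 3) of the summed FPKM of Runx1, Runx2 and Runx3 in untreated WT and 65.1% ± 0.288 in untreated Pim1-/- cells, where Runx3, named after its values were seen, held 21.5% against 7.89% in WT.

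The 3 C/EBP genes share a bZIP domain and bind the same DNA motif, but they moved in opposite directions with LPS. The 250 bases before the annotated start of Cebpa (chr7:35119043-35119292, plus strand) and of Cebpb (chr2:167688665-167688914, plus strand) are shown because these genes had the opposite responses; Cebpd is not in the promoter table used. The sequences are from RefSeq (GRCm38.p6), 5′ to 3′, with TATAA and TGACG (the letters shared by a TATA box and by a CREB/ATF site) in capitals wherever they stand on either strand.
Cebpa: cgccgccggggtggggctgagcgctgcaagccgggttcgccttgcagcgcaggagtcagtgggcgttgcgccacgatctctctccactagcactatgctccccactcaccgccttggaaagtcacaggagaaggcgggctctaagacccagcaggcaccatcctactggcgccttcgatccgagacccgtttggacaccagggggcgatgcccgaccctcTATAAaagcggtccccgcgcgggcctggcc
Cebpb: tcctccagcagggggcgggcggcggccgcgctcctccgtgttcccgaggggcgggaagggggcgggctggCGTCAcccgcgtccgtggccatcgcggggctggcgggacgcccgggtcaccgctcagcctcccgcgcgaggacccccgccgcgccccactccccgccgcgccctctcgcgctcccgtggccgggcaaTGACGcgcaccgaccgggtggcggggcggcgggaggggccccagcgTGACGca
TATAA begins 30 bases before the start of Cebpa and is not found in the Cebpb window, while TGACG or its reverse complement is found 3 times in the Cebpb window and not in that of Cebpa. Of 32817 such windows in the reference, 22.8% hold TATAA and 17.7% hold TGACG. These matches describe the letters only, since no binding was measured here.

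Cebpa encodes C/EBP alpha, the member tied to myeloid commitment and to exit from the cell cycle. It was measured at 50.9, 50.7 and 51.9 FPKM in untreated WT and at 34.1, 33.0 and 34.6 FPKM in untreated Pim1-/- libraries. With LPS it dropped to 0.999, 1.02 and 1.09 FPKM in WT against 1.60, 1.80 and 1.83 FPKM in Pim1-/- libraries, or about 55.9 to 56.9 and 111 to 127 fragments. Thus the Pim1-/- libraries were below WT without treatment and above WT after LPS, with no overlap in either case. The WT mean fell 49.2-fold and the Pim1-/- mean 19.5-fold in FPKM, which on the log2(FPKM + 1) scale were differences of −4.68 and −3.67 (adjusted p = 2.49e-20 and 5.5e-19). The response of Pim1-/- cells was smaller by 1.01 on that scale (SE 0.07, adjusted p = 5.71e-09), just past 2-fold. It was 0.95 under quantile normalization, and between 0.983 and 0.995 without untreated WT library 3, untreated Pim1-/- library 2, treated WT library 1 or treated Pim1-/- library 2 or 3, which puts it just inside 2-fold. The added 1 FPKM understates changes at such low levels, and with a pseudocount of 0.1 the responses were −5.49 and −4.21 and their difference 1.28. The difference between genotypes was −0.58 untreated (adjusted p = 2.57e-08) and 0.43 after LPS (adjusted p = 6.73e-07).

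Cebpb, which encodes the inflammatory C/EBP beta, was measured at 19.1, 18.5 and 23.4 FPKM in untreated WT and at 16.6, 14.5 and 17.9 FPKM in untreated Pim1-/- libraries. With LPS it reached 193, 157 and 193 FPKM in WT against 142, 147 and 143 FPKM in Pim1-/- libraries. The lowest WT library lay above the highest Pim1-/- library under both treatments, but by little. Cebpb rose 8.89-fold in WT and 8.84-fold in Pim1-/- cells by the ratio of mean FPKM, and the responses differed by −0.02 on the log2(FPKM + 1) scale (95% interval −0.30 to 0.26, adjusted p = 0.907). The sign of that small difference turned under median-ratio, quantile and equal-sum scaling. The genotypes differed by −0.30 without treatment (adjusted p = 0.00877) and by −0.32 after LPS (adjusted p = 0.00556), and the latter missed the FDR threshold at −0.04 under quantile normalization and at −0.11 with equal FPKM sums.

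Cebpd encodes C/EBP delta, which inflammatory signals induce together with C/EBP beta. Its level was 11.3, 11.6 and 12.2 FPKM in untreated WT and 9.27, 9.51 and 10.3 FPKM in untreated Pim1-/- libraries. After LPS it was 123, 104 and 114 FPKM in WT against 70.4, 67.6 and 64.2 FPKM in Pim1-/- libraries. The genotypes did not overlap under either treatment, and the treated ones lay further apart, with the Pim1-/- mean at 59.2% of the WT mean. Cebpd rose 9.73-fold in WT and 6.95-fold in Pim1-/- cells in FPKM. The difference after LPS was −0.75 on the log2(FPKM + 1) scale (adjusted p = 1.6e-08), short of 2-fold, and that without treatment was −0.25 (adjusted p = 0.00141).

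The shares of the 3 genes turned over with LPS. Cebpa made up 61.5% ± 1.89 (SD, n = 3) of their summed FPKM in untreated WT and 56.6% ± 1.42 in untreated Pim1-/- cells, against 0.354% ± 0.038 and 0.817% ± 0.062 after LPS. In the treated cells Cebpb held 61.1% in WT and 67.6% in Pim1-/- libraries, and Cebpd held 38.6% and 31.6%. The sum itself was 83.2 ± 3.71 FPKM (SD, n = 3) in untreated WT, 59.9 ± 2.91 in untreated Pim1-/-, 295.8 ± 29.5 in LPS-treated WT and 213 ± 3.75 in LPS-treated Pim1-/- cells.

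**Figure D3:**
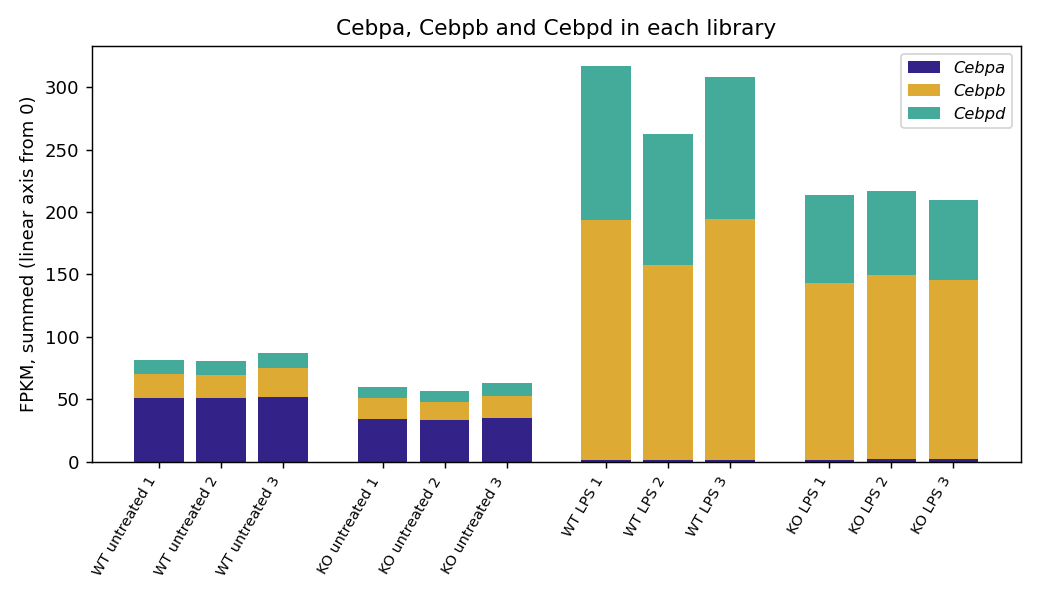
Summed FPKM (linear axis from 0) of Cebpa, Cebpb and Cebpd in each of the 12 libraries; KO stands for Pim1-/-. Cebpa is the largest segment of each untreated bar and is barely visible, at 1.83 FPKM or less, in the LPS-treated bars, which are made of Cebpb and Cebpd.

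Maf, on the minus strand of chromosome 8 (115682942 to 115707794), encodes c-MAF. It was measured at 106, 109 and 101 FPKM in untreated WT and at 38.3, 40.8 and 40.8 FPKM in untreated Pim1-/- libraries. With LPS it was 142, 136 and 129 FPKM in WT against 34.7, 33.3 and 35.7 FPKM in Pim1-/- libraries. The highest Pim1-/- library, at 40.8 FPKM, was thus far below the lowest WT library, at 101 FPKM. The Pim1-/- mean was 38.0% of the WT mean without treatment and 25.5% after LPS. On the log2(FPKM + 1) scale Maf fell by 1.37 (95% interval −1.48 to −1.27, adjusted p = 8.58e-13) and by 1.94 (95% interval −2.04 to −1.84, adjusted p = 2.5e-14). Neither call was lost under any of the other scalings, thresholds or left-out libraries tried.

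The LPS response of Maf was within 2-fold in both genotypes, and its size, and in WT cells its direction, turned on the scaling. The treated mean was 129% of the untreated mean in WT (0.36 on the log2 scale) and 86.5% in Pim1-/- cells (−0.20), and the responses differed by −0.57 (adjusted p = 3.31e-06). The WT response was −0.72 under quantile normalization and −0.44 with equal FPKM sums, and the Pim1-/- response was −0.74 and −0.85. Both scalings also moved the median of all genes tested. Relative to that median the WT response was −0.54 and 0.23, and the Pim1-/- response −0.56 and −0.27. The difference of the responses was −0.02 under quantile normalization (adjusted p = 0.781).

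The 6 genes known to respond to c-MAF that were listed are the complement genes C1qa, C1qb and C1qc, the cytokine gene Il10, Cd5l and the scavenger receptor gene Cd163. Of these 6, 4 fell in untreated Pim1-/- cells and none rose, with a median difference of −1.27 on the log2 scale against −0.05 for all genes tested. C1qb, the highest of them, had a mean of 1887 FPKM in untreated WT and 692 FPKM in untreated Pim1-/- cells. Cd5l fell from 21.2 to 5.72 FPKM and C1qa from 298 to 111 FPKM. After LPS 5 of the 6 were lower by all thresholds (median −1.49 against −0.03), with C1qb at 2678 FPKM in WT against 752 FPKM in Pim1-/- cells. The 4 genes with the largest differences after LPS were the 3 C1q genes and Cd5l, and the fifth, Il10, named after its values were seen, was at 48.8 FPKM in WT against 21.9 FPKM in Pim1-/- cells. Quantile and equal-sum scaling each left 4.

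Klf2 and Klf4 encode Krüppel-like zinc finger factors that bind GC-rich promoter elements. The 250 bases before the start of Klf2 (chr8:72318812-72319061, plus strand) and Klf4 (chr4:55532476-55532725, minus strand) are shown in the same way, because these relatives also moved apart.
Klf2: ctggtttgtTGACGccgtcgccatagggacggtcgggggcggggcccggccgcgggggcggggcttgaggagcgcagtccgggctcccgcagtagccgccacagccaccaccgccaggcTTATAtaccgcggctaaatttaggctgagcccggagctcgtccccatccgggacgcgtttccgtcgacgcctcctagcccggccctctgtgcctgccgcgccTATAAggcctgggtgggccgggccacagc
Klf4: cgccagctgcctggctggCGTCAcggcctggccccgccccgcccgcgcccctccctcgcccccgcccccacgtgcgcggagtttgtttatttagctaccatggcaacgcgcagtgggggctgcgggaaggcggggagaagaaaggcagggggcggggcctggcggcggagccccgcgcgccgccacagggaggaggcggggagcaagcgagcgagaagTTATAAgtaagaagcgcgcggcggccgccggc
TATAA begins 29 bases before the Klf2 start, with its reverse complement at 131 bases, and, as TTATAA, 32 bases before the Klf4 start, and TGACG or its reverse complement stands once in each, 241 and 232 bases before. The GC content was 71.2% for Klf2 and 74% for Klf4, beside 66.4% for Cebpa, 81.6% for Cebpb and a median of 52.4% over all windows. The letters GGGCGG, bound by Sp and KLF factors, were found on either strand in 4 of the 9 windows of the 6 members in the table, those of Cebpb, Klf2, Klf4 and 1 of Mitf, and in 32.7% of all windows.

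Klf2 was measured at 13.8, 12.7 and 14.1 FPKM in untreated WT and at 10.4, 10.1 and 11.6 FPKM in untreated Pim1-/- libraries. With LPS it was 4.77, 4.87 and 3.43 FPKM in WT against 4.82, 4.53 and 5.82 FPKM in Pim1-/- libraries. The treated genotypes overlapped, and their difference of 0.18 on the log2(FPKM + 1) scale did not pass the FDR threshold (95% interval −0.03 to 0.39, adjusted p = 0.108). It did pass with equal FPKM sums (0.34, adjusted p = 0.00722) and without treated WT library 1 or 2 or treated Pim1-/- library 2 (0.24 to 0.25), always short of 2-fold. LPS lowered Klf2 past the thresholds in WT cells, to 32.2% of the untreated mean (−1.45, adjusted p = 9.08e-10). In Pim1-/- cells the treated mean was 47.2% of the untreated mean, which on the log2(FPKM + 1) scale was −0.95 and short of 2-fold. It passed 2-fold with a pseudocount of 0.1 (−1.07), under the 3 other scalings (−1.02 to −1.55) and without LPS-treated Pim1-/- library 3 (−1.04). The responses differed by 0.50 (adjusted p = 0.00647), short of 2-fold.

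Klf4 was the one gene with higher levels in Pim1-/- cells under both treatments. It was measured at 3.94, 3.99 and 3.35 FPKM in untreated WT and at 5.73, 5.87 and 5.98 FPKM in untreated Pim1-/- libraries. With LPS it was 6.07, 6.29 and 6.82 FPKM in WT against 9.24, 9.19 and 9.96 FPKM in Pim1-/- libraries. The genotypes did not overlap, with Pim1-/- means of 156% and 148% of the WT means, or 0.53 and 0.50 on the log2(FPKM + 1) scale (adjusted p = 1.28e-06 and 2.01e-06), both short of 2-fold. The LPS responses were 0.64 in WT and 0.61 in Pim1-/- cells on that scale, both short of 2-fold, and their difference of −0.03 did not pass the FDR threshold (95% interval −0.21 to 0.16, adjusted p = 0.8). With equal FPKM sums the responses were −0.04 and 0.02 and their difference 0.06. That scaling moved the median of all genes tested to −0.67 in WT and −0.58 in Pim1-/- cells. Relative to the median gene the responses were 0.63 and 0.61, against 0.63 and 0.62 in the values as deposited. Klf2 made up 78.2% of the summed FPKM of the pair in untreated WT, 64.6% in untreated Pim1-/-, 40.4% in treated WT and 34.7% in treated Pim1-/- cells.

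Mitf, on the plus strand of chromosome 6 (97807052 to 98021349), encodes a bHLH-zip factor of the MiT/TFE family. It was measured at 11.4, 10.9 and 10.4 FPKM in untreated WT and at 6.91, 7.00 and 7.04 FPKM in untreated Pim1-/- libraries. With LPS it was 33.9, 33.6 and 32.8 FPKM in WT against 27.0, 27.3 and 26.7 FPKM in Pim1-/- libraries. The 4 groups did not overlap, and the treated Pim1-/- libraries came closer to WT than the untreated ones. The Pim1-/- mean was 64.3% of the WT mean untreated (−0.57 on the log2 scale, adjusted p = 8.73e-09) and 80.8% after LPS (−0.30, adjusted p = 1.09e-05). The difference after LPS was −0.08 under quantile normalization and −0.10 with equal FPKM sums, or −0.09 and −0.22 relative to the median gene. Mitf rose 3.08-fold with LPS in WT and 3.87-fold in Pim1-/- cells in FPKM, or by 1.54 and 1.81 on the log2 scale, and with equal FPKM sums the WT response was 0.77 and short of 2-fold. Within the family the change was one of order. Tfec, a member restricted to macrophages and related cells, made up 14.4% of the summed FPKM of Mitf, Tfeb, Tfec and Tfe3 in untreated WT and 71.5% after LPS, and 19.6% and 67.6% in Pim1-/- cells. Tfeb, a regulator of lysosome genes, went from 30.7% to 0.996% in WT and from 27.7% to 2.03% in Pim1-/- cells. The share of Mitf itself was 11.0% in untreated and 13.6% in treated WT cells, against 11.7% and 18.5% in Pim1-/- cells.

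The order of the levels was set side by side for the 4 groups. Untreated cells of both genotypes had the order Spi1, Maf, Cebpa, Cebpb and Klf2 from the top, and Klf4 was last. Neighbouring ranges overlapped only for Klf2 and Runx1 and for Cebpd and Mitf in WT, and for Klf2 and Cebpd and for Runx1 and Mitf in Pim1-/- cells. After LPS the first places were held by Spi1, Cebpb, Maf and Cebpd in WT and by Spi1, Cebpb, Cebpd and Maf in Pim1-/- cells, and Cebpa was last in both. Only Runx1 and Klf4 in WT overlapped as neighbours. Among the 10581 genes tested, Spi1 ranked 315 from the top in untreated WT and 178 after LPS, and Cebpa ranked 1222 and 9346.

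LPS raised 4 of the 9 genes in WT cells, namely Spi1, Cebpb, Cebpd and Mitf, and lowered Cebpa and Klf2. In Pim1-/- cells the same 4 genes rose and Cebpa and Runx1 fell. Of all genes tested, 34.8% met the thresholds with LPS in WT (20.1% higher and 14.7% lower) and 25% in Pim1-/- cells (14.6% higher and 10.4% lower), and the FDR threshold alone was passed by 91.2% and 87.2%, as by all 9 genes. These comparisons depended on how the libraries were put on a common scale. With equal FPKM sums the median of all genes tested moved to −0.67 in WT and −0.58 in Pim1-/- cells, and under quantile normalization to −0.18 in both. The calls with LPS in WT then split into 1192 higher and 3723 lower with equal sums and 1653 and 1853 under quantile normalization, against 2130 and 1556 in the values as deposited. In Pim1-/- cells the splits were 973 and 2806 with equal sums and 1320 and 1353 under quantile normalization, against 1546 and 1103 as deposited. Relative to the median gene, the responses of Spi1, Cebpb, Cebpd and Mitf in WT with equal sums were 1.95, 2.97, 3.06 and 1.44, and that of Cebpa was −4.59. The direction of these 5 held under all scalings in both genotypes, but Spi1 no longer reached 2-fold under quantile normalization, at 0.91 in WT and 0.71 in Pim1-/- cells, nor with equal sums in Pim1-/- cells, at 0.90.

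**Figure D4:**
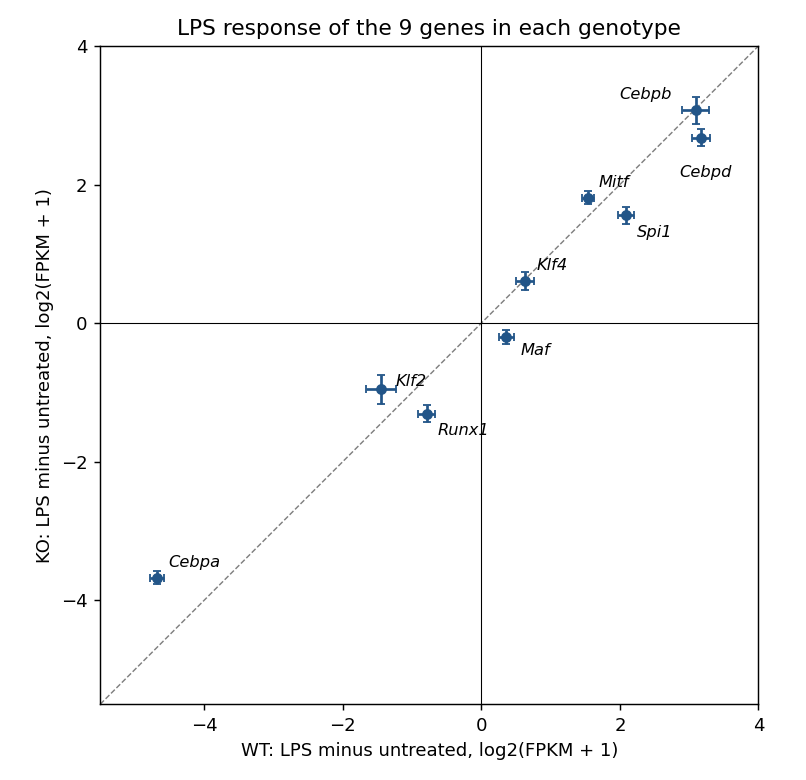
Difference in log2(FPKM + 1), LPS minus untreated, in WT (horizontal) and Pim1-/- cells (vertical, KO), with 95% confidence intervals; the dashed line marks equal responses. Cebpa lies at −4.68 and −3.67, Cebpb near the line at 3.09 and 3.07, and Maf at 0.36 and −0.20, of which the first turned negative under quantile and equal-sum scaling.

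The difference in the LPS response between genotypes met all thresholds for 1 gene, Cebpa, against 6.67% of all genes tested, 2.24% higher and 4.43% lower. The FDR threshold alone was passed by 7 of the 9 genes and by 68.5% of all genes. The response of Pim1-/- cells was lower for Spi1 (−0.53), Cebpd (−0.50), Maf (−0.57) and Runx1 (−0.52) and higher for Cebpa, Klf2 (0.50) and Mitf (0.27). Under quantile normalization these differences were −0.20 for Spi1, −0.18 for Cebpd, −0.02 for Maf and −0.35 for Runx1. Those of Cebpa, Klf2 and Mitf were then 0.95, 0.45 and 0.56. For Cebpb and Klf4 no difference in response was detected.

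The named target genes of the other factors were listed in the same way. Of 10 genes bound by PU.1, 3 fell and 1 rose in untreated Pim1-/- cells, where 7.78% of all genes tested met the thresholds. Fcgr1, the high-affinity Fc gamma receptor, fell from 28.9 to 8.43 FPKM, Csf1r, the receptor for macrophage colony-stimulating factor, from 764 to 254 FPKM, and Cybb, a subunit of the phagocyte oxidase, from 153 to 61.5 FPKM. Msr1, a scavenger receptor gene, rose from 28.8 to 97.7 FPKM. After LPS 2 of the 10 were lower, with Fcgr1 at 306 and 68.5 FPKM and Csf1r at 449 and 180 FPKM in WT and Pim1-/- cells. The medians were −0.54 untreated and −0.65 after LPS on the log2 scale, against −0.05 and −0.03 for all genes tested. Of 8 genes of C/EBP beta and delta, 6 were tested and 3 were lower in Pim1-/- cells after LPS. They were the acute phase genes Saa3, at 4220 and 789 FPKM, Lcn2, at 67.3 and 14.7 FPKM, and Hp, at 3.10 and 0.494 FPKM. Il6, named after its values were seen, was at 1278 FPKM in WT against 1358 FPKM in Pim1-/- cells, with libraries that overlapped. In untreated cells 1 of the 6, Saa3, was lower by the thresholds, with library values that overlapped. Of 7 tested genes of MITF and its relatives, none met the thresholds untreated. There limma put 6 past the FDR threshold alone, 5 lower and 1 higher, as it did 78.8% of all genes tested. After LPS 1 of the 7 met the thresholds, Acp5, a phosphatase gene of osteoclasts, at 79.5 and 36.2 FPKM. That call was lost under quantile and equal-sum scaling. Gpnmb, the highest of that list and a lysosomal membrane protein gene, was at 3300.2 and 2950 FPKM in untreated and 3012 and 3067 FPKM in treated WT and Pim1-/- cells. Of 4 genes tied to KLF4, 2 were tested, and Mrc1, the mannose receptor, was lower in untreated Pim1-/- cells, at 31.4 against 88.2 FPKM. The other, Chil3, named after its values were seen, differed in the opposite direction by under 2-fold on the log2(FPKM + 1) scale, at 2.78 against 1.30 FPKM untreated (0.72) and 4.06 against 2.09 FPKM after LPS (0.71), and passed the FDR threshold.

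**Figure D5:**
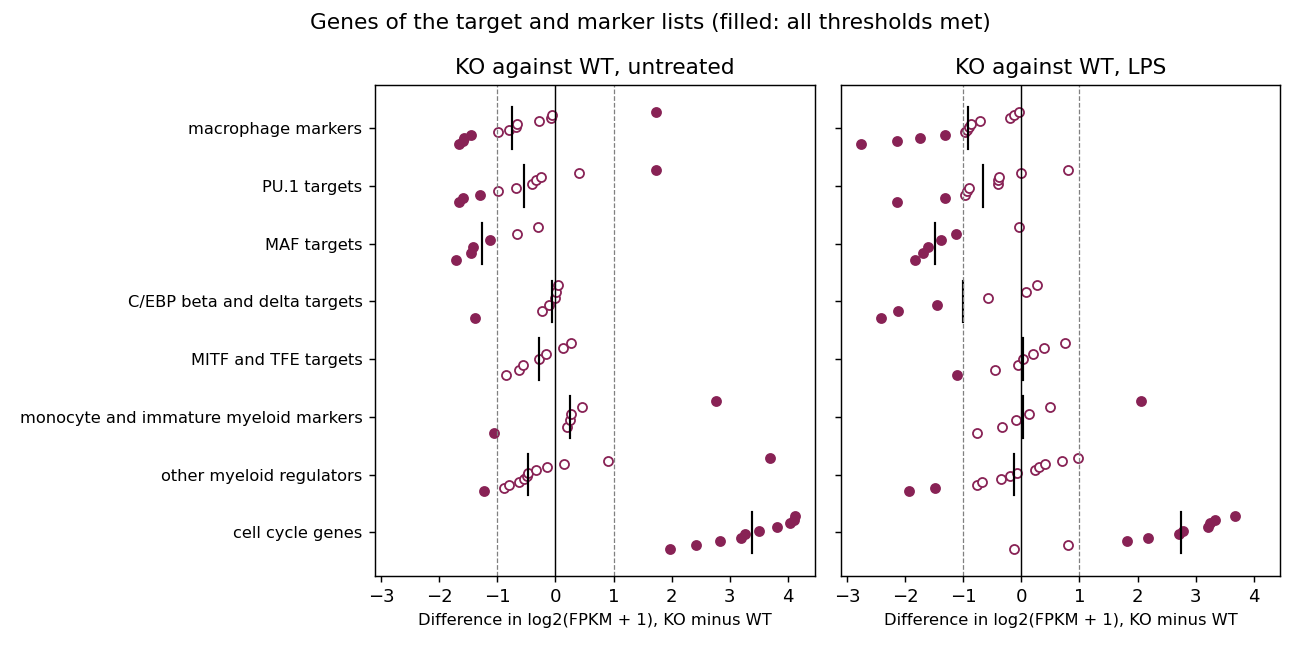
Difference in log2(FPKM + 1), Pim1-/- (KO) minus WT, for each tested gene of 8 lists (1 point a gene, filled where all thresholds were met, vertical bar at the median) in untreated and LPS-treated cells; dashed lines mark 2-fold. The MAF targets sit left of 0 with medians of −1.27 and −1.49, and the cell cycle genes right of it with medians of 3.39 and 2.75, apart from 1 cell cycle gene after LPS.

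In every group 11 of the 12 markers of the labelled cell type had a mean of at least 1 FPKM, the other being Marco untreated (0.0675 FPKM in WT, 0.0125 in Pim1-/-) and Cd163 after LPS (0.103 and 0.0769 FPKM). All 12 were tested, with Adgre1 listed under its older symbol Emr1. The lists overlap: Csf1r, Itgam, Fcgr1, Msr1 and Lyz2 are also among the genes bound by PU.1. Mrc1 is also among the KLF4 genes and Cd163 among the MAF genes, so the changes of these genes are not separate results. In untreated Pim1-/- cells 4 of the 12 fell, namely Fcgr1, Csf1r, Mertk (16.5 to 4.92 FPKM), which encodes a receptor for dying cells, and Mrc1, and Msr1 rose. After LPS 4 were lower, with Marco, a scavenger receptor, at 12.7 FPKM in WT against 1.03 FPKM in Pim1-/- cells, and with Mertk at 18.2 and 4.74 FPKM, beside Fcgr1 and Csf1r. Lyz2, the lysozyme gene and the highest marker, had means of 26302 FPKM in untreated WT and 13297 FPKM in untreated Pim1-/- cells, a difference of −0.98 on the log2 scale that fell short of 2-fold. Emr1, Cd68 and Cd14 were named after their values were seen. Their means in untreated WT and Pim1-/- cells were 226 and 129 FPKM for Emr1, 1161 and 956 FPKM for Cd68, and 167 and 160 FPKM for Cd14, for which the libraries overlapped. The median difference of the 12 markers was −0.74 untreated and −0.92 after LPS.

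Other regulators of the myeloid line were not uniformly lower. Of 12 listed, 1 fell and 1 rose in untreated Pim1-/- cells. All 12 passed the FDR threshold alone, as did 78.8% of all genes tested, with 9 lower and 3 higher. Their median difference was −0.48 on the log2 scale, against −0.05 for all genes tested. Irf8, a factor of monocyte and dendritic cell fate, fell from 84.0 to 35.1 FPKM, and Id3, an inhibitor of bHLH factors, rose from 4.58 to 71.5 FPKM. After LPS Irf8 was at 226 FPKM in WT against 58.4 FPKM in Pim1-/- cells, and Ikzf1, which encodes Ikaros, at 201 and 71.3 FPKM. Of 26 tested relatives of the 9 genes, 1 met the thresholds untreated, the ETS gene Ets2, which rose from 3.86 to 8.83 FPKM, and 3 were lower after LPS, namely Elf4 (20.5 and 7.47 FPKM), Etv6 (71.2 and 29.6 FPKM) and Klf3 (41.0 and 18.7 FPKM).

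Markers of immature and of dividing cells were counted as well. Of 12 monocyte and immature myeloid markers 6 were tested. Cd34, a marker of progenitors, rose from a mean of 0.844 to 11.5 FPKM in untreated Pim1-/- cells, and the chemokine receptor gene Ccr2 fell from 8.50 to 3.56 FPKM. After LPS Cd34 was at 0.564 and 5.53 FPKM. The progenitor genes Mpo, Elane, Prtn3, Ctsg, Ms4a3 and Flt3, named after their values were seen, had means under 1 FPKM in every group. Kit, also named after its values were seen, was at 1.74 and 2.31 FPKM in untreated and 0.668 and 0.573 FPKM in treated WT and Pim1-/- cells. By the FDR threshold alone, which 78.8% of all genes tested passed, 5 of the 6 were higher and 1 lower in untreated Pim1-/- cells (median 0.26 on the log2 scale). After LPS 2 were higher and 2 lower (median 0.02), and 80.9% of all genes tested passed. The list summed to 23.0 to 23.5 FPKM in untreated WT, 31.4 to 32.8 in untreated Pim1-/-, 6.13 to 7.13 in treated WT and 10.5 to 11.6 in treated Pim1-/- libraries. Of 18 factors of progenitors and other lineages, 4 were tested and none met the thresholds untreated. With limma 2 of the 4 passed the FDR threshold alone there, against 78.8% of all genes tested. Gfi1 (23.6 and 4.49 FPKM) and Batf3 (2.60 and 0.205 FPKM) were lower in Pim1-/- cells after LPS. All 10 cell cycle genes rose in untreated Pim1-/- cells, with a median difference of 3.39 on the log2 scale, led by Ccna2 (2.43 to 58.3 FPKM), Top2a (2.96 to 66.9 FPKM) and Birc5 (4.41 to 88.0 FPKM), and 8 were higher after LPS, with a median of 2.75. Their sum was 129 to 142 FPKM in untreated WT, 809 to 895 in untreated Pim1-/-, 349.7 to 354 in treated WT and 664 to 747 FPKM in treated Pim1-/- libraries. Pcna was the highest of the 10 in every group, with means of 110, 434, 313 and 546 FPKM in that order. The sum thus hides that with LPS in WT cells 2 of the 10 were higher and 8 lower by the FDR threshold alone. Their median response there was −0.61 on the log2 scale, and 91.2% of all genes tested passed that threshold. The part of these markers in the differences of the 9 genes was not tested.

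Markers of other cell types differed widely in level, and some differed between genotypes. The 10 lymphocyte markers and the 10 erythroid and megakaryocyte markers all had means under 1 FPKM in every group, and summed to at most 0.586 and 0.469 FPKM in a library. The 8 mast cell and basophil markers summed to 1.72 to 2.76 FPKM without treatment and to 29.4 to 51.3 FPKM with LPS, where nearly all of it was Hdc, a gene that macrophages also express. The 8 stromal markers summed to 3.37 to 3.93 FPKM in untreated WT and 1.04 to 1.38 FPKM in untreated Pim1-/- libraries, and to 11.7 to 11.9 against 3.29 to 4.00 FPKM after LPS, where 1 of 3 tested, Pdgfrb, was lower by all thresholds (7.10 against 2.16 FPKM). Of 9 neutrophil markers present, Csf3r, the receptor for granulocyte colony-stimulating factor, was lower in Pim1-/- cells by all thresholds under both treatments, at 16.2 against 3.00 FPKM untreated and 46.2 against 6.16 FPKM with LPS. A calprotectin subunit gene, S100a9, was lower after LPS (3.07 against 0.776 FPKM), so that 2 of the 4 neutrophil markers tested were called there, or 1 with equal FPKM sums. The other 2 tested, S100a8 and Mmp8, were named after their values were seen and were not called. In untreated WT and Pim1-/- cells S100a8 was at 1.29 and 3.41 FPKM and Mmp8 at 1.43 and 2.78 FPKM. After LPS S100a8 was at 3.81 and 3.85 FPKM, with libraries that overlapped, and Mmp8 at 1.37 and 2.36 FPKM. Retnlg, named after its values were seen, was listed at 0 throughout. The neutrophil list summed to 52.7 to 56.2 FPKM in treated WT and 12.4 to 14.4 FPKM in treated Pim1-/- libraries, with Csf3r the highest gene in both. Among 8 dendritic cell markers only Clec10a, a lectin gene that macrophages also express, had a group mean above 1 FPKM, and it was lower in Pim1-/- cells by all thresholds, at 38.1 against 3.18 FPKM untreated and 17.8 against 1.61 FPKM with LPS. The 9 osteoclast markers summed to 106 to 109 FPKM in untreated WT and 73.1 to 76.9 FPKM in untreated Pim1-/- libraries. None of the 5 tested met the thresholds untreated, where 3 passed the FDR threshold with limma, against 78.8% of all genes tested. The part of these markers in the results was not tested.

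The genes most like each member over the 12 libraries were found by the root mean square difference of log2(FPKM + 1) after each gene was centred on its own mean. For Maf they were C1qa (0.12) and Mertk (0.13), and for Spi1 Pgap2 and Pi4k2a (both 0.09). For Runx1, Mmp19 (0.12) was among the 2 nearest genes. For Cebpa they were Rasgrp3 (0.15) and Inpp5d (0.19), for Cebpb Mtmr14 (0.13) and 4933412E12Rik (0.14), and for Cebpd H2-T9 (0.07) and Tlk2 (0.09). H2-T9 has near-identical relatives and its value is uncertain. For Klf2 they were Parp1 (0.10) and Map4k1 (0.11), for Klf4 Odf2l (0.07) and Ap1s3 (0.09), and for Mitf Slc23a2 and Maml2 (both 0.07). Rasgrp3, for example, had means of 34.5 and 27.2 FPKM in untreated and 0.362 and 0.744 FPKM in treated WT and Pim1-/- cells, and so crossed between genotypes with LPS as Cebpa did.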

How the data were processed

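RNA sequencing was done on 12 BMDM libraries, 3 in each of the 4 groups named by the labels. The deposited values are FPKM per gene, 1 table per library, which the authors made with cutadapt 1.18, TopHat2 2.0.13 and Cuffdiff 2.2.1 after bcl2fastq 2.20.0.422, versions as listed in the submitters' processing notes. The labels name the mouse build mm10, while the methods text names a rat build. The tables do not state their unit, which was taken from the labels and methods. FPKM keeps no total count, so depth was only estimated from the lowest values of genes with 1 transcript of 2000 to 8000 bases, where 76.0% to 84.5% of low values lay within 0.1 of a whole number of fragments, with an assumed fragment length of 200 bases. Changes of library composition, such as those of LPS, move every FPKM of a library.

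The 10581 of 23997 genes that reached 1 FPKM in 3 or more libraries were tested in R 4.3.3 with limma 3.58.1 on log2(FPKM + 1), with 4 group means, a mean-variance trend and all 12 libraries. Fold changes on that scale understate those of low genes. Calls needed a change over 2-fold, a p under 0.05 and an FDR under 0.1. The test was checked on simulated data. Percentages and fold ratios of mean FPKM are descriptions. Alternatives were another pseudocount, other filters, median-ratio, quantile and equal-sum scaling, no trend, only the groups compared, a replicate block, another threshold and leaving out each library, of which equal-sum scaling was chosen after seeing the data.

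The 9 genes and all lists were chosen with earlier results of these data known. Genes named were the 9, Pim1, up to 3 called genes with the largest change in each direction and the highest gene of each list, and the 2 genes most like each of the 9. Others are marked as named after their values were seen, apart from genes given as members of a whole list or family. Same-numbered libraries deviated together (r over 3646 genes with at least 10 FPKM in every library) by 0.326 to 0.456 between untreated genotypes and by 0.426 to 0.683 between treated and untreated Pim1-/- cells. The labels state no pairing, and the source of these shared deviations was not tested. Same-numbered libraries did not all deviate together for the treated genotypes (0.0203 to 0.366) or for WT cells with and without LPS (−0.103 to 0.191). Gene positions are from GENCODE M21 on GRCm38. Promoters were matched by symbol for 6 of the 9 genes. Results for some genes that met these rules are not reported here.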

Additional observations from a re-analysis of the deposited data

Results flagged for a closer look

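The LPS response differed between genotypes for 7 of the 9 genes by the FDR threshold alone, which 68.5% of all genes tested also passed in limma's test of the difference. On the log2(FPKM + 1) scale, Pim1-/- minus WT, the difference was 1.01 for Cebpa (−3.67 against −4.68), 0.50 for Klf2 (−0.95 against −1.45) and 0.27 for Mitf (1.81 against 1.54). It was −0.50 for Cebpd (2.68 against 3.17), −0.53 for Spi1 (1.56 against 2.09), −0.52 for Runx1 (−1.31 against −0.79) and −0.57 for Maf (−0.20 against 0.36). Only that of Cebpa passed 2-fold. Under quantile normalization that of Maf was −0.02 (adjusted p = 0.781), and the WT response of Maf turned to −0.72. The differences of Spi1 and Cebpd shrank to −0.20 and −0.18 there, and that of Runx1 to −0.35, while that of Mitf grew to 0.56.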

How the results depend on the processing

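Of all alternative values, 923 kept their direction and their side of the threshold, 31 met the thresholds of their setting where they had missed the main ones, 13 lost a call and 14 reversed. Most of the 31 came from the setting without a fold threshold. It kept the main values and only dropped the 2-fold rule, so those values themselves did not change. Without a fold threshold and at an FDR under 0.05, 9 and 8 of the 9 genes passed between the untreated and the treated genotypes and 7 for the difference in response, and over all genes the counts were 7904, 8194, 9453 (LPS in WT), 8954 (LPS in Pim1-/-) and 6657. The 9 genes gave 9 and 9 with LPS. Under quantile normalization 0 of the 9 met the thresholds for the difference in response, where limma put Cebpa at 0.95, and with equal FPKM sums 1 did, Maf, between the treated genotypes. A pseudocount of 0.1 gave 1442 genes (717 higher and 725 lower) between the treated genotypes and 1075 (510 and 565) for the difference, against 916 and 706. Equal FPKM sums split the calls into 504 higher and 335 lower between the treated genotypes, against 371 and 545, and into 331 and 389 for the difference, against 237 and 469. Leaving out 1 library gave 1 to 1, 3 to 3, 6 to 6, 6 to 7 and 0 to 1 of the 9 genes in the order above (untreated genotypes, treated genotypes, LPS in WT, LPS in Pim1-/-, difference), and 791 to 861, 888 to 1005, 3664 to 3708, 2642 to 2669 and 692 to 723 of all genes. The 0 is the difference of Cebpa, and the 7 includes Klf2.

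Reversed values were the difference in response of Cebpb, at 0.00896 (median-ratio), 0.28 (quantile), 0.13 (equal sums) and 0.0195 to 0.0454 without 1 library, and of Klf4, at 0.0612 (equal sums) and 0.0136 to 0.036 without 1 library. The WT LPS response reversed for Maf, at −0.72 (quantile) and −0.44 (equal sums), and for Klf4, at −0.0369 (equal sums). Relative to the median gene the equal-sum values were 0.23 for Maf and 0.63 for Klf4. Over all left-out libraries those differences ran from −0.12 to 0.0454 for Cebpb and from −0.0633 to 0.036 for Klf4. The cause was not tested. With the replicate number as a block, the genes called among the 9 were 1, 3, 6, 6 and 1 and among all genes 824, 915, 3686, 2649 and 707, against 823, 916, 3686, 2649 and 706 without it, so the block changed no call among the 9. Cebpa after LPS rested on an estimated 55.9 to 127 fragments per library, and fragments were not estimated for the other 8 genes.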
